A study of Mus musculus with 2 samples.

Results

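The genes described here are 9 members of the bone morphogenetic protein (BMP) pathway and its Id target genes, namely Bmp4, Bmpr1a, Smad1, Smad5, Smad6, Smad7, Id1, Id2 and Id3, out of 27998 genes in the deposited matrices. They were chosen by name, with the measured levels and knockout over wild-type ratios of these libraries already known, so those values are given as a description with no test. Mouse iPSCs (induced pluripotent stem cells, made by reprogramming differentiated cells until they resemble those of the early embryo) were profiled cell by cell in serum-containing medium with the droplet method of 10x Genomics. The knockout library came from SRFΔ/Δ cells, which lack serum response factor (SRF), and the wild-type library from SRFf/f cells, whose floxed alleles were left in place. The labels give no age, no passage number and no number of clones. Each genotype had 1 library, so differences between the libraries have no replicate check, and every 95% interval below is exact and covers counting error only. A limit given beside a count of 0 is the level of 3 counts.

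BMP ligands bind pairs of type I and type II receptors on the cell surface, and the type I receptor phosphorylates Smad1 and Smad5, which enter the nucleus with Smad4. The Id genes are among the direct targets of these Smads, and Id proteins bind and block basic helix-loop-helix transcription factors because they lack a DNA-binding region of their own. Smad6 and Smad7 are inhibitory Smads that many cells induce in response to the signal and that limit it. In mouse embryonic stem cells, BMP from serum and the Id genes are known for holding back neural differentiation.

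Bmp4 and Smad6 are shown by the 250 bases before their RefSeq start site because their levels differed between the libraries or classes of cells described below and because these windows overlap no annotated exon. The windows lie at chr14:46390670-46390919 (Bmp4, minus strand) and chr9:64022060-64022309 (Smad6, minus strand) of GRCm38.p6, are written 5′ to 3′ along the gene, and carry in capitals each match to CCGCCC on either strand.
Bmp4: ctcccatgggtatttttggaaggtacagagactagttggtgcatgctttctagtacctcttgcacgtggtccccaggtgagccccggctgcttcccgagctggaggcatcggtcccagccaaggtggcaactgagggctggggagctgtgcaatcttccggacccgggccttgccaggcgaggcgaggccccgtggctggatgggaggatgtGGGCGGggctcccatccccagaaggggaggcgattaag
Smad6: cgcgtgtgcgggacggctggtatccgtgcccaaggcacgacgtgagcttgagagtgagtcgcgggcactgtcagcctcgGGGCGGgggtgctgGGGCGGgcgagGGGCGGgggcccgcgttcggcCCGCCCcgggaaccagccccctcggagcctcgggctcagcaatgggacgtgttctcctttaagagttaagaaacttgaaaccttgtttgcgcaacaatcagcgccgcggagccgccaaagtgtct
The Bmp4 window held 1 match to CCGCCC and the Smad6 window 4. Of 32851 RefSeq windows of the same length, 32.7% held at least 1. The CArG box, the motif known for SRF binding, was found in 1.47% of the windows, and the Smad-associated motifs GGCGCC and CAGAC in 9.59% and 42.2%. None of these 3 had a match in the Bmp4 or the Smad6 window. RefSeq entries were matched for 7 of the 9 genes. Among the other matched genes, Id2 had 1 GGCGCC match, Bmpr1a had 1, and Id3 had 2 CAGAC matches. Smad5, with 3 start sites in the table, had 1 GGCGCC match at the second and 1 CAGAC match at the third. These are matches of letters and not measured binding sites.

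The matrices held 1073 knockout and 954 wild-type cells, with medians of 20605 and 25907 unique molecular identifiers (UMIs, counts of captured transcripts) per cell. Levels are given as counts per 1000000 UMIs of a class of cells (CPM). Requiring at least 1000 genes and 1 to 10% mitochondrial UMIs kept 753 and 902 cells. The knockout library lost 244 cells for having under 1% mitochondrial UMIs and the wild-type library 17. Cells with at least 10 UMIs over 6 fibroblast collagen and matrix genes (16 knockout, 6 wild type) were set apart. The remainder were split by their UMIs over 8 endoderm genes (Gata6, Gata4, Sox17, Pdgfra, Dab2, Cubn, Lrp2 and Amn). Endoderm-low cells, with at most 1 such UMI, numbered 585 (knockout) and 876 (wild type). Endoderm-high cells, with at least 10, numbered 95 and 3. All 8 pluripotency markers were detected in the endoderm-low cells of both libraries, where their summed level was 10038 CPM in the knockout and 13090 CPM in wild-type cells. Srf had 4 UMIs in the knockout endoderm-low cells (0.275 CPM) and 196 in the wild-type ones (8.62 CPM). The knockout fibroblast cells carried 13 Srf UMIs, in 4 of the 16 cells and with 10 of them in 1 cell. Srf in those 4 cells went against the label of their library. The libraries shared 2 cell barcodes.

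The plot of levels by class of cells gives every member in 6 groups of cells. Id1 separated the endoderm-low cells of the libraries upward in the knockout, and Id2 separated them downward. Bmp4 was high in knockout endoderm-low cells and low in knockout endoderm-high cells. Id3 was highest in fibroblast cells of either library.

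**Figure D1:**
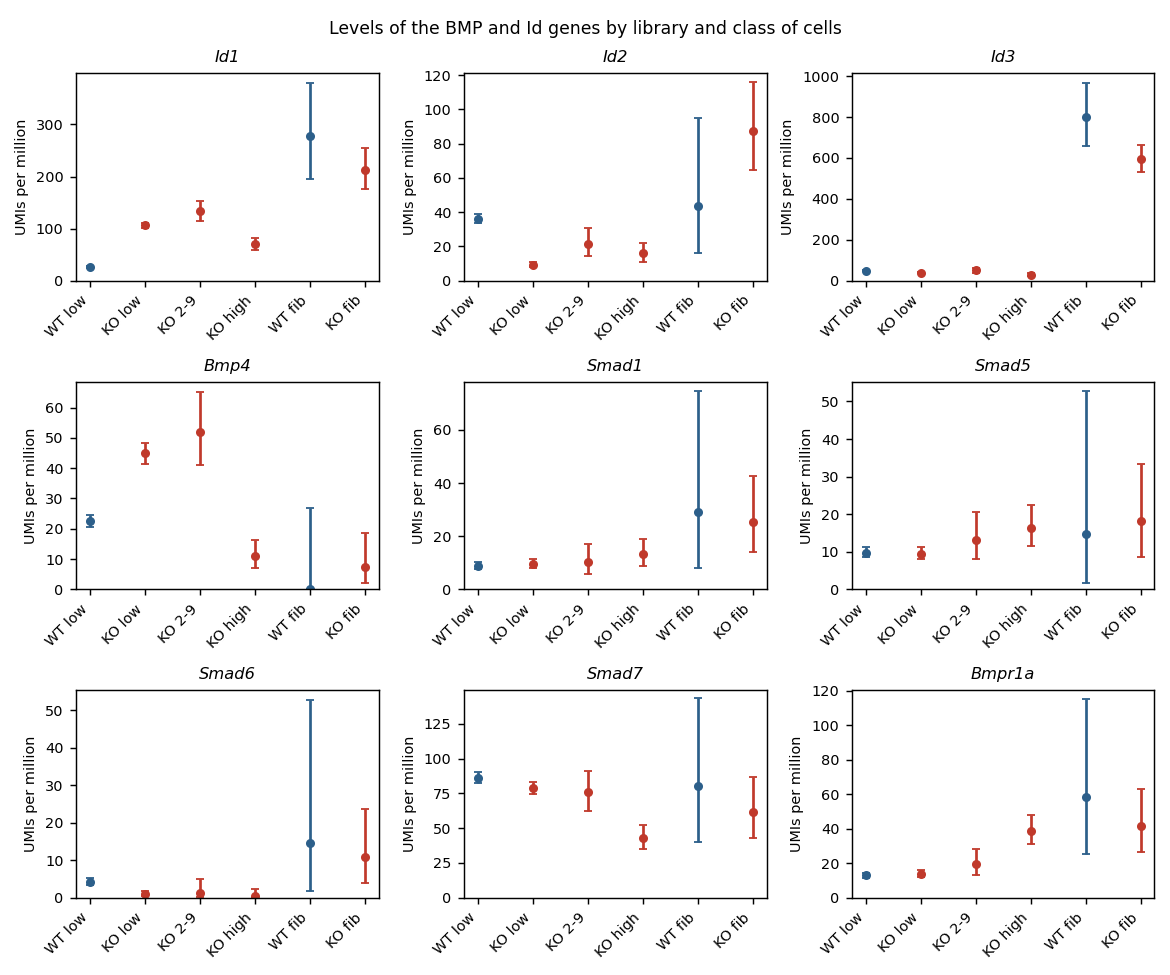
Each panel plots the level of 1 gene in CPM (vertical axis, from 0) in 6 groups of cells (horizontal axis; low, 2-9 and high refer to UMIs over the 8 endoderm genes and fib to fibroblast cells), knockout (KO) in red and wild type (WT) in blue, with exact 95% counting intervals. Id1 stands at 106.1 in knockout and 26.8 in wild-type endoderm-low cells, and Bmp4 falls from 44.9 in knockout endoderm-low to 11.0 in knockout endoderm-high cells.

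Bmp4, the BMP ligand of the list, had 654 UMIs in the knockout endoderm-low cells (44.9 CPM, 95% interval 41.5 to 48.5) and 512 in the wild-type ones (22.5 CPM, 20.6 to 24.6). The level was 1.99-fold higher in the knockout library, with a log2 ratio of 0.99 (0.83 to 1.16), just short of 2-fold. After each cell was thinned at random to 10000 UMIs, the knockout library had at least 1 Bmp4 UMI in 30.1% of its 522 cells (26.2 to 34.2%), and the wild-type library in 16.5% of its 798 cells (14.0 to 19.3%). Without thinning these shares were 47.4% and 28.9%, at median depths of 24440 and 26624 UMIs. More cells carried the ligand's transcript in the knockout library at equal depth. For comparison, Pou5f1, a pluripotency gene that fibroblasts lack, was seen in 1 of 16 thinned knockout fibroblast cells and 0 of 6 wild-type ones, and Bmp4 itself in 0 of 16.

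Within the knockout library Bmp4 was lower in endoderm-high cells, where 25 UMIs gave 11.0 CPM (7.15 to 16.3). The log2 ratio of endoderm-high over endoderm-low was -1.99 (-2.66 to -1.45), a level 3.99-fold lower. Cells with 2 to 9 endoderm UMIs stood at 52.1 CPM (41.0 to 65.3), beside the endoderm-low level and apart from the endoderm-high one. At the upper edge of the classes, Bmp4 was at 43.4 CPM (10 UMIs) in the 10 knockout cells with 7 to 9 endoderm UMIs. In the 23 cells with 10 to 19 it was at 16.4 CPM (8 UMIs), and counts this small leave both levels uncertain. At the lower edge Bmp4 was at 46.4 (185 UMIs) in cells with 1 endoderm UMI and 55.9 (45 UMIs) in cells with 2. The 3 wild-type endoderm-high cells, of which 2 carried the macrophage markers described with Id2, had no Bmp4 UMI, which allows a level of up to 35.2 CPM.

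Bmpr1a, a type I BMP receptor, was at 14.0 CPM in the knockout endoderm-low cells (204 UMIs, 12.1 to 16.1) and at 12.9 in the wild-type ones (294 UMIs, 11.5 to 14.5). Its log2 ratio of 0.12 had an interval from -0.15 to 0.38, which holds 0 and leaves out a change of 2-fold either way. In knockout endoderm-high cells the receptor stood at 38.9 CPM (88 UMIs, 31.2 to 47.9), a log2 ratio of 1.48 (1.10 to 1.84) over endoderm-low. Its thinned share of cells was 13.0% in knockout and 13.8% in wild-type endoderm-low cells, and 38.5% of 91 knockout endoderm-high cells (28.4 to 49.2%).

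Smad1 and Smad5, the receptor-activated Smads, had close levels in both libraries. Smad1 was at 9.61 CPM in knockout and 8.80 in wild-type endoderm-low cells, a log2 ratio of 0.13 (-0.19 to 0.45). Smad5 was at 9.47 and 9.76, a log2 ratio of -0.04 (-0.36 to 0.27). Both intervals hold 0 and both exclude a 2-fold difference. In knockout endoderm-high cells Smad5 was at 16.4 CPM, with a log2 ratio over endoderm-low of 0.80 (0.22 to 1.32), and Smad1 at 13.3, with a log2 ratio of 0.48 (-0.16 to 1.04). The interval for Smad1 reached below 0 and that for Smad5 did not.

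The inhibitory Smads behaved unlike each other. Smad6 had 15 UMIs in the knockout endoderm-low cells (1.03 CPM, 0.58 to 1.70) and 97 in the wild-type ones (4.27 CPM, 3.46 to 5.20). The knockout level was 4.03-fold lower, with a log2 ratio of -2.01 (-2.94 to -1.26). In thinned cells Smad6 was found in 2 of the 522 knockout ones (0.383%, 0.046 to 1.38%) but 28 of the 798 wild-type ones (3.51%, 2.34 to 5.03%). The transcript was scarce in both libraries, and the knockout endoderm-high cells held 1 UMI, which shows no difference between classes at this depth. Smad7 was at 78.8 CPM in knockout (74.3 to 83.5) and 86.3 in wild-type endoderm-low cells (82.6 to 90.2), with a log2 ratio of -0.13 (-0.24 to -0.03). It was seen in 51.0% of thinned knockout and 52.5% of thinned wild-type cells. In knockout endoderm-high cells Smad7 was at 42.9 CPM, a log2 ratio of -0.87 (-1.19 to -0.58) over endoderm-low.

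Id1, the first of the Id targets, had 1546 UMIs in the knockout endoderm-low cells (106.1 CPM, 100.9 to 111.5) and 610 in the wild-type ones (26.8 CPM, 24.7 to 29.0). It was 3.95-fold higher in the knockout library, with a log2 ratio of 1.98 (1.85 to 2.12). Of 6440 genes at a mean of at least 10 CPM, 2 had a higher ratio. At least 1 Id1 UMI was found in 47.3% of thinned cells in the knockout library (43.0 to 51.7%) and in 17.3% of those in the wild-type library (14.7 to 20.1%). Without thinning the shares were 61.5% and 28.4%. Both the share of cells with Id1 and the mean in the cells that had it were higher in the knockout, at 2.17 thinned UMIs per positive cell against 1.64. In knockout endoderm-high cells Id1 was at 70.3 CPM (59.8 to 82.1), a log2 ratio of -0.59 (-0.84 to -0.36) over knockout endoderm-low cells and above the wild-type endoderm-low level. This ratio between the classes was 0.035 among cells with a usual share of chromosome 8 UMIs, a measure described with the last results. It was -1.05 without the 5 cells of each class highest in an Id gene. Those 5 are a larger part of the 95 endoderm-high cells than of the 585 endoderm-low cells, so the classes are trimmed unevenly.

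Id2 went the other way. It had 135 UMIs in the knockout endoderm-low cells (9.26 CPM, 7.77 to 11.0) and 824 in the wild-type ones (36.2 CPM, 33.8 to 38.8). The knockout level was 3.90-fold lower, with a log2 ratio of -1.96 (-2.24 to -1.70), and 9 of the 6440 genes had a lower ratio. The thinned share of cells was 7.09% for knockout cells (5.04 to 9.64%), below the 18.4% for wild-type cells (15.8 to 21.3%). In knockout endoderm-high cells Id2 was at 15.9 CPM, a log2 ratio of 0.79 (0.21 to 1.32) over endoderm-low. Cells with macrophage markers moved with that value. Of the 36 Id2 UMIs of that class, 23 lay in 3 cells with at least 10 UMIs over Ptprc, Cd68, Pf4, Ccl6 and Wfdc17. All the endoderm-list UMIs of those cells were of Dab2. Without these cells Id2 was at 5.84 CPM in the endoderm-high class and its log2 ratio was -0.62, so the direction rested on them. The same held for 21 of the 31 Id2 UMIs of the knockout cells with 2 to 9 endoderm UMIs, where the level was 21.5 CPM with 3 such cells and 7.08 without. Of the 3 wild-type endoderm-high cells, 2 were such cells and held all 16 Id2 UMIs of the class.

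Of Id1, Id2 and Id3, Id3 differed least between the libraries. It was at 38.7 CPM in knockout endoderm-low cells (564 UMIs, 35.6 to 42.0) and at 48.8 in wild-type ones (1109 UMIs, 45.9 to 51.7), a log2 ratio of -0.33 (-0.48 to -0.19). Fibroblast cells stood far above this, at 594.7 CPM (knockout) and 802.4 CPM (wild type). When the few fibroblast cells with at most 1 endoderm UMI were kept in the endoderm-low class, the ratio moved to -0.06. The thinned share of cells with Id3 was 23.6% in knockout and 27.9% in wild-type endoderm-low cells, with overlapping intervals. Id4, the remaining Id gene, was sparse in endoderm-low cells, with 20 UMIs (knockout) against 37 (wild type), with a log2 ratio of -0.23 (-1.11 to 0.58).

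The fibroblast cells carried the pathway's transcripts at other levels. In the 16 knockout ones, 6 of the 8 members at a mean of at least 10 CPM were at least 2-fold higher than in endoderm-low cells of that library and 1 was lower, against 56.6% of 7309 genes past 2-fold (29.3% higher, 27.3% lower). Smad5 is among the 6 through the 0.5 UMIs added to each sum, at 18.2 over 9.47 CPM with an interval that holds 0. In the 6 wild-type ones, 4 of 8 were higher and 1 was lower, against 57.9% of 7117 genes (35.3% higher, 22.6% lower). Both shares stand on a background in which most genes differ. Of the 4 higher in the wild-type fibroblast cells, 3 had a ratio interval above 0. Smad1 is among the 4 with 4 UMIs, at 29.2 CPM (7.95 to 74.7) beside 8.80 in wild-type endoderm-low cells. Id3 was higher in both libraries, by log2 ratios of 3.94 (3.74 to 4.14) and 4.05 (3.74 to 4.32). Id1 was at 212.8 CPM in the knockout fibroblast cells and 277.2 in the wild-type ones, with overlapping intervals (176.0 to 255.0 and 196.2 to 380.5). Bmp4 was the member that was lower, with 4 UMIs in the knockout fibroblast cells (7.28 CPM) and 0 in the wild-type ones. The 0 allows up to 21.9 CPM, close to the 22.5 of wild-type endoderm-low cells, and so shows no difference there. In knockout cells with 2 to 9 endoderm UMIs, only Id2 of the 8 members at 10 CPM or more was past 2-fold from the endoderm-low level, against 1.32% of 6603 genes (1.12% higher, 0.197% lower), and its value rests on the macrophage-marker cells given above.

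Over the list, 3 of 9 members differed by at least 2-fold between the libraries in endoderm-low cells, with Id1 higher and Id2 and Smad6 lower in the knockout. Of the 6 members at a mean of at least 10 CPM, Id1 and Id2 did. Among all 6440 genes at that level, 1.46% differed by at least 2-fold, 0.823% higher and 0.637% lower in the knockout. As the list was named with these ratios known, nothing is read from the comparison of the shares. The median log2 ratio of the 9 members was -0.04 and that of all genes 0.05, with the 10th and 90th percentiles at -0.32 and 0.43. Of a wider list of 43 pathway genes (other ligands, receptors, mediators, inhibitors, targets and partners of Id proteins), 12 reached 10 CPM. None of them was past 2-fold, and their median was 0.22. Acvr2b, a type II receptor, had the highest ratio of these 12, at 0.74 (0.55 to 0.94).

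Between the endoderm classes of the knockout, 2 of the 8 members at 10 CPM or more differed by at least 2-fold, Bmpr1a upward and Bmp4 downward, against 20.4% of 6978 genes at that level (15.3% higher and 5.07% lower). A share of this size is near the background. Of the wider list, 17 of 43 reached the minimum, and 4 passed 2-fold. Pmepa1, which encodes a membrane protein, was at 85.3 CPM in endoderm-high and 15.4 in endoderm-low cells, a log2 ratio of 2.47 (2.19 to 2.76). Bmpr2, the type II BMP receptor, was at 16.8 and 6.25 (log2 ratio 1.44, 0.84 to 1.99). Gdf3, a ligand of the same superfamily made by pluripotent cells, was at 10.2 and 62.1 (log2 ratio -2.58, -3.28 to -2.02), and Acvr2b was at 14.6 and 30.8 (log2 ratio -1.06, -1.64 to -0.57).

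**Figure D2:**
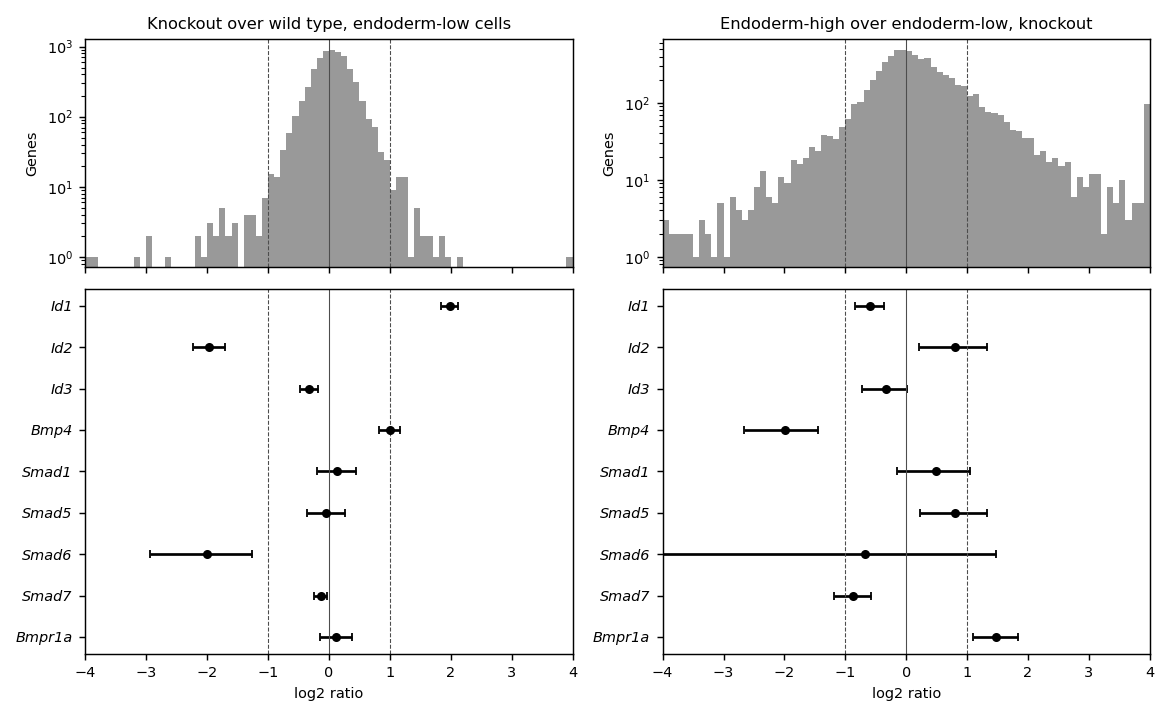
The upper panels give the number of genes (log axis) by log2 ratio, with values beyond 4 drawn at 4, and the lower panels the 9 members with exact 95% intervals, for knockout over wild type in endoderm-low cells (left) and endoderm-high over endoderm-low in the knockout (right); dashed lines mark 2-fold. Id1 at 1.98 and Id2 at -1.96 lie in the tails on the left, and Bmpr1a at 1.48 and Bmp4 at -1.99 lie past 2-fold on the right, where the whole distribution is wider.

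How the Id transcripts were spread over single cells was compared after thinning to 10000 UMIs. The plot of cells by number of Id UMIs shows the knockout above the wild type at every count for Id1 and the reverse at every count for Id2. For Id1, 21.5% of knockout and 5.14% of wild-type cells had at least 2 UMIs, and 4.60% and 0.752% had at least 5. For Id2, 0.958% of knockout and 7.14% of wild-type cells had at least 2. The 80 wild-type cells with the most Id2, of 798, held 78.4% of its UMIs. The 80 highest cells for Id1 held 74.3% of its UMIs, and the 80 highest for Id3 held 60.4%. Of the 522 knockout cells, the 53 highest held 51.4% of Id1, 68.2% of Id3 and 100% of the sparse Id2 UMIs. Such shares depend on the mean level and do not measure unevenness by themselves. In the wild-type cells they were 74.6% for Bmpr1a and 73.3% for Bmp4.

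**Figure D3:**
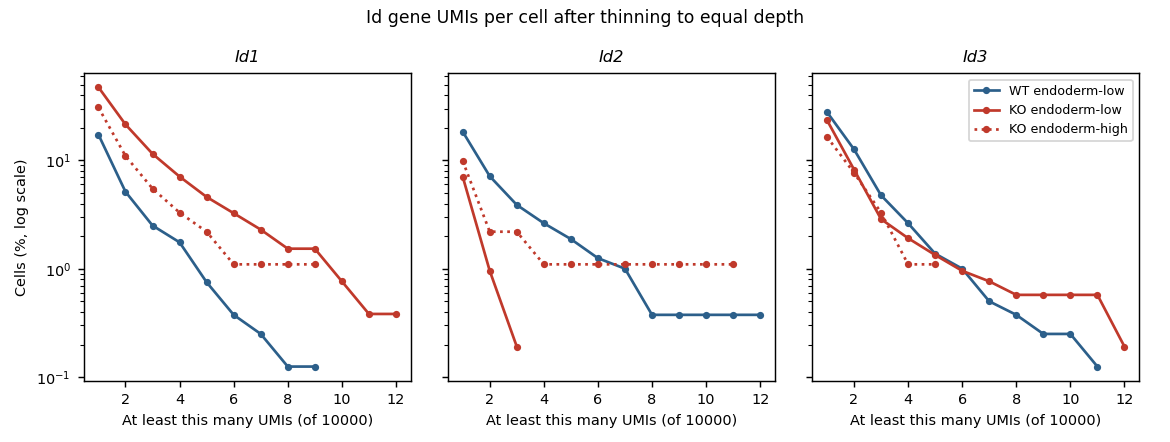
For Id1, Id2 and Id3, the share of cells (percent, log axis) with at least the number of UMIs on the horizontal axis after each cell was thinned to 10000 UMIs, in wild-type endoderm-low (blue, 798 cells), knockout endoderm-low (red, 522 cells) and knockout endoderm-high cells (red dotted, 91 cells). The Id1 curve of the knockout starts at 47.3% and that of the wild type at 17.3%, and the Id2 curves start at 7.09% and 18.4%.

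The variance over the mean of the thinned counts (Fano factor, 1 for sampling noise alone) was above 2 for Id1, Id2 and Id3 in both libraries, except for Id2 in the knockout, where the mean was 0.0824 thinned UMIs. For Id1 it reached 3.04 (knockout) against 2.39 (wild type), for Id3 3.25 and 2.48, and for Id2 1.25 and 4.21. Of the 4 members with a thinned mean of at least 0.2 in both libraries, Id1 and Id3 had a higher Fano factor in the knockout and Bmp4 and Smad7 a lower one, and it was higher in the knockout for 52.3% of the 4161 genes with such a mean. Among those genes Id1 ranked 84th (knockout) and 111th (wild type), and Id3 72nd and 104th. The members outside the Id genes ran from 0.93 to 1.54 in the knockout and from 0.97 to 1.63 in the wild type. Bmp4 was the highest of them in each and ranked 360th (knockout) and 299th (wild type). Smad7 ranked 776th and 417th. The medians of the 4161 genes were 1.10 and 1.09. The squared coefficient of variation falls as the mean rises. For Id1 it came to 2.97 (knockout) and 8.45 (wild type), and for Id2 to 15.1 and 10.8. With the part due to sampling noise (1 over the mean) subtracted, Id1 kept 1.99 (knockout) against 4.92 (wild type). Id2 kept 2.98 and 8.26, and Id3 5.33 and 2.85. The Fano factor also depends on the mean, for Id1 1.02 thinned UMIs (knockout) and 0.283 (wild type). By itself the Fano factor of Id1 does not show a wider spread over cells in the knockout.

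Correlations between the Id genes were low in both libraries. Across thinned endoderm-low cells, Pearson's r on log2(count + 1) for Id1 and Id3 was 0.13 in the wild type (798 cells) and 0.06 in the knockout (522 cells). For Id1 and Id2 it was 0.04 and 0.05, and for Id2 and Id3 0.02 and -0.01. Sampling noise in counts this sparse pulls r toward 0, so low values cannot show that co-expression was weak. Such values are descriptions and no more, and the cells of a correlation share 1 library. In the wild type 22.4% of the Id3-positive cells had Id1 (17.1 to 28.5%) and 15.3% of the Id3-negative ones did (12.5 to 18.5%), and in the knockout 52.0% and 45.9%, with overlapping intervals in each library. Over the 36 pairs of members, r ran from -0.06 to 0.16 in the wild type and from -0.10 to 0.12 in the knockout, with medians of 0.00 in both. The highest pair in the wild type was Id1 with Bmp4 at 0.16, and that pair was at 0.08 in the knockout.

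**Figure D4:**
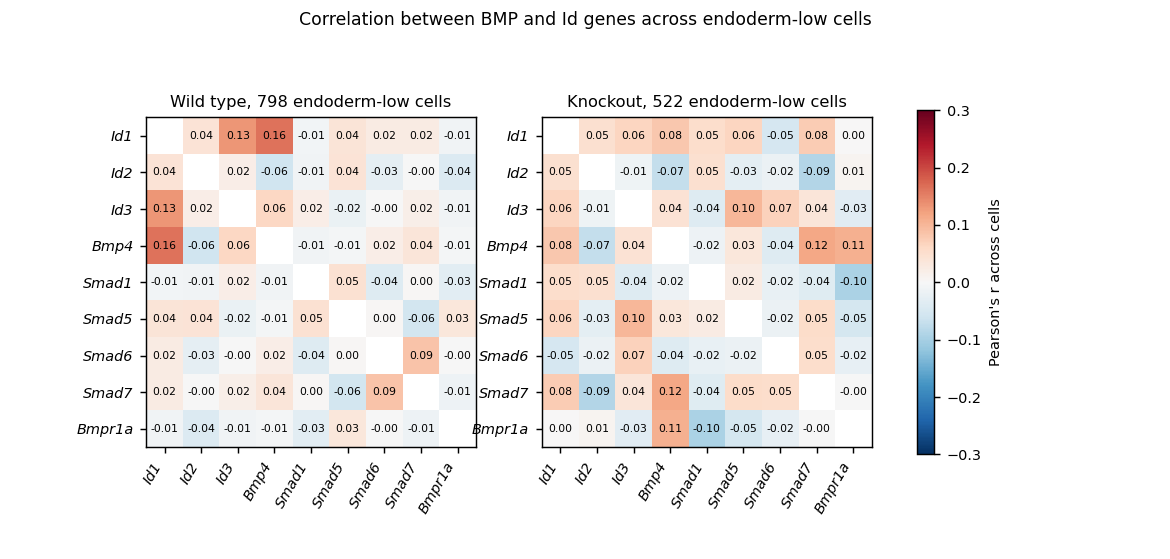
Pearson's r across thinned endoderm-low cells for each pair of the 9 genes (both axes list the genes; colour and number give r) in the wild type (left, 798 cells) and the knockout (right, 522 cells). All values lie between -0.10 and 0.16, and Id1 with Bmp4 (0.16) and Id1 with Id3 (0.13) are the highest in the wild type.

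The genes whose pattern over cells was most like that of Id1 and Id3 were ranked by the same r among genes with a thinned mean of at least 0.2. In the wild type (4374 genes) Id1 was followed most closely by Tpm4, a tropomyosin (0.16), Bmp4 (0.16), B2m (0.16), Cald1 (0.16) and Tmsb4x (0.16). Id3 ranked 15th for Id1. In the knockout (4550 genes) the list was Sfn (0.29), S100a10 (0.29), Junb (0.26), Plaur (0.23) and Phlda1 (0.22), while Bmp4 ranked 373rd and Id3 636th. For Id3 the 5 genes were S100a6 (0.15), Tpgs1 (0.15), Id1 (0.13), Hiat1 (0.13) and Prdx1 (0.13) in the wild type and Csnk1d (0.19), Csnk2a1 (0.15), Cited2 (0.15), Spp1 (0.15) and Aen (0.14) in the knockout.

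The share of UMIs from chromosome 8 moved with several of these values. It was above 1.2 times the wild-type median, over genes of at most 500 CPM, in 278 of 585 knockout endoderm-low cells (47.5%), in 86 of 876 wild-type ones (9.82%) and in 64.2% of the knockout endoderm-high cells. Such cells are called raised here and the others usual. Any chromosome 8 gene within that limit whose level differs between the endoderm classes can also count in the share. The part of such genes in the value for endoderm-high cells was not tested. Of the members, Smad1 lies on chromosome 8 itself. Its own UMIs count in that share, so a higher Smad1 level in raised cells is partly built in. The log2 ratios of raised over usual cells for Smad1 were 0.86 (0.35 to 1.39) in the knockout and 1.0 (0.43 to 1.52) in the wild type. Its knockout over wild-type ratio was -0.21 (-0.71 to 0.24) within usual cells, against 0.13 in all cells, and both intervals hold 0. The ratio of Smad7, -0.13 in all cells, was 0.02 (-0.12 to 0.15) within usual and -0.37 (-0.61 to -0.13) within raised cells.

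Id1, which lies on chromosome 2, was at 68.7 CPM in usual and 145.1 in raised knockout cells, and at 24.0 and 52.5 in the wild type. The raised over usual log2 ratio was 1.08 (0.92 to 1.23) in the knockout and 1.14 (0.83 to 1.42) in the wild type. The knockout over wild-type ratio of Id1 was 1.52 (1.34 to 1.70) within usual cells and 1.46 (1.19 to 1.75) within raised cells, below the 1.98 of all cells and past 2-fold in each. Id2 was at 11.0 and 7.43 CPM in usual and raised knockout cells and at 39.1 and 10.2 in the wild type. Its knockout over wild-type ratio was -1.82 (-2.17 to -1.50) within usual cells and -0.47 (-1.18 to 0.32) within raised cells, where 23 wild-type UMIs were counted. The interval for raised cells holds 0 and leaves out the value for usual cells. In the wild type Id2 was lower in raised than in usual cells by a log2 ratio of -1.92 (-2.61 to -1.35).

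Bmp4 was at 49.6 and 40.0 CPM in usual and raised knockout cells and at 21.1 and 35.3 in the wild type. Its knockout over wild-type ratio was 1.23 (1.03 to 1.44) within usual cells, past 2-fold, and 0.17 (-0.18 to 0.55) within raised cells. Id3 gave -0.25 (-0.44 to -0.07) in usual and 0.12 (-0.25 to 0.53) in raised cells. For Smad6 both values were below 0, at -1.94 (-3.27 to -0.97) and -1.84 (-3.54 to -0.19). The r of Id1 with Sfn in the knockout was 0.23 in usual and 0.28 in raised cells, and that of Id1 with Id3 was 0.09 and 0.07. Junb and Tpm4, named above as like Id1, lie on chromosome 8. The r of Id1 with Junb in the knockout was 0.20 in usual and 0.26 in raised cells. With Tpm4 in the wild type it was 0.19 in usual and -0.07 in the 79 raised cells. The part of the chromosome 8 share in the differences between the libraries was not tested beyond these values.

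**Figure D5:**
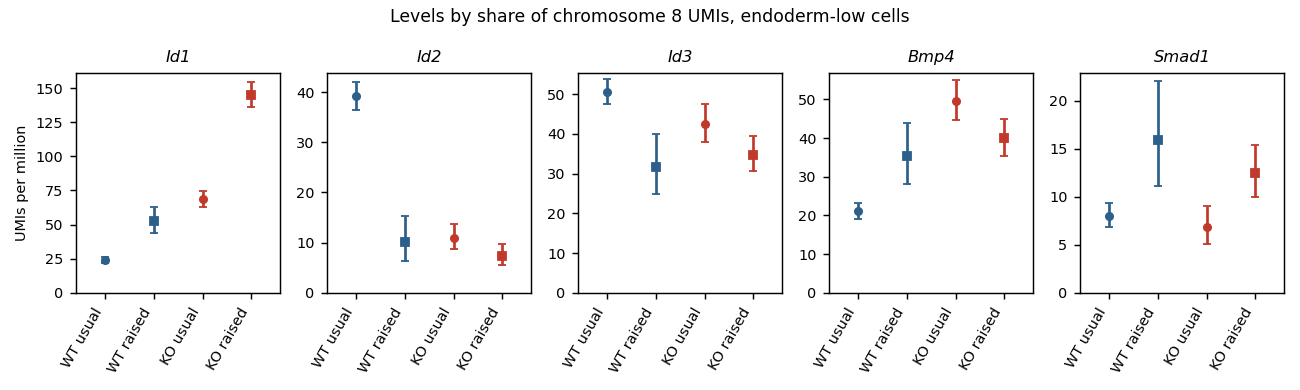
Levels of Id1, Id2, Id3, Bmp4 and Smad1 in CPM (vertical axis, from 0) with exact 95% intervals, in endoderm-low cells with a usual (circles) or raised (squares) share of chromosome 8 UMIs, wild type (WT) in blue and knockout (KO) in red. Id1 is higher in raised cells of both libraries, and the wild-type Id2 level falls from 39.1 in usual to 10.2 in raised cells.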

How the data were processed

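The authors deposited 1 matrix per library of whole-number UMI counts per gene and cell, not normalised, as integer MatrixMarket files per the file headers. The submitters' processing notes name Cell Ranger 2.0.0, Seurat 3.1.1 and mm10 without saying how they were used. Reads of near-identical or overlapping genes were assigned by a rule not given in the sources used here. Counts were summed over the cells of a class and divided by their total (counts per 1000000, CPM). The log2 ratios add 0.5 UMIs to each sum, and exact conditional intervals at 95% cover counting error only, since UMIs of 1 library are not biological replicates. With 1 library per genotype no test was made. Intervals for shares are exact (Clopper-Pearson). Shares, Fano factors and correlations used cells thinned to 10000 UMIs without replacement. This left out 63 knockout and 78 wild-type endoderm-low cells as shallower. Simulated counts for the knockout over wild-type comparison gave intervals that covered the true ratio for 95.1% of 6440 genes. They were drawn by Poisson sampling of the class sums, with no variation between cells or libraries, so coverage near 95% was built in. This checks the calculation only. Fano factors of the Id genes lay above 1, a spread over cells that the intervals do not cover.

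The members, lists and classes were chosen with earlier results of these data known. Fibroblast cells were left out of the classes, and keeping them is an alternative. All members are named. Of the pathway list, genes at 10 CPM or more and past 2-fold are named, with Id4. The 5 genes most like Id1 and like Id3 in each library are named. Acvr2b in the comparison of the libraries was named after its values were seen. Doublets were called with Scrublet in scanpy 1.11.5 and kept, with their removal as an alternative. Other alternatives were scaling (TMM in edgeR 4.0.16, median of ratios), minimum level, depth, thinning and seed, filters on genes and mitochondrial share, class limits and the chromosome 8 share. Chosen after seeing the data were a minimum of 2000 pluripotency CPM and the removal of cells with macrophage markers. So was the removal of the 5 cells highest in an Id gene from each of the endoderm-low and endoderm-high classes. Gene positions came from GENCODE M21 (GRCm38) and start-site windows from RefSeq (GRCm38.p6). The bulk RNA sequencing that the design names was not analysed here.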

Additional observations from a re-analysis of the deposited data

Results flagged for a closer look

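Id1 was also present in cells that the mitochondrial filter removed. In 227 knockout endoderm-low cells with under 1% mitochondrial UMIs it was at 136.2 CPM (122.2 to 151.4), against 35.0 CPM (16.8 to 64.3) in the 16 wild-type cells under that limit and 26.8 in the wild-type endoderm-low cells that passed it. The knockout cells had a median of 8552 UMIs, and in them Bmp4 was at 17.4, Smad7 at 26.8 and Bmpr1a at 1.18 CPM.

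Bmp4 moved in opposite directions with the chromosome 8 share in the libraries. The log2 ratio of raised over usual cells was -0.31 (-0.54 to -0.09) in the knockout and 0.75 (0.38 to 1.09) in the wild type. The difference between these values was not tested.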

How the results depend on the processing

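No paired analysis was possible because the groups hold 1 library each. A ratio counts as moved when it left its own 95% interval, a median or r when it shifted by over 0.1, and a count when it changed by over 1.5 times; for each move below the cause was not tested. Over 16 alternatives the knockout over wild-type log2 ratio ran from 1.52 to 2.11 for Id1, from -2.36 to -1.82 for Id2, from 0.85 to 1.23 for Bmp4, from -2.31 to -1.86 for Smad6 and from -0.39 to -0.06 for Id3. Moves were 1.52 for Id1 and 1.23 for Bmp4 with usual chromosome 8 shares only, -2.36 for Id2 with each cell weighted alike and -0.062 for Id3 with fibroblast cells kept. With usual shares Smad7 went from -0.13 to 0.018 and Smad1 from 0.13 to -0.21, which turns the sign of each, and Smad7 was -0.27 with equal weights and -0.29 with low-mitochondrial cells. The members past 2-fold numbered 3 or 4. Keeping cells under 1% mitochondrial UMIs took the members' median to -0.17 and the pathway median to 0.088. Within the knockout, endoderm-high over low, the ratio ran from -2.54 to -1.93 for Bmp4 and from 1.31 to 1.64 for Bmpr1a over 17 alternatives. The members' median, -0.33, was -0.51 with TMM, -0.49 with median-of-ratios scaling, -0.44 at 15000 UMIs or more, -0.49 with low-mitochondrial cells, -0.52 with a class limit of 20 UMIs, -0.61 with fibroblast cells, -0.60 without macrophage-marker cells, -0.52 without the 5 highest Id cells and 0.035 with usual chromosome 8 shares, where 5 members passed 2-fold. The pathway median, 0.40, was 0.23 with TMM, 0.24 with median-of-ratios, 0.53 with low-mitochondrial cells, 0.66 with equal weights, 0.75 at 1 CPM, 0.78 with no minimum and 0.50 with usual shares. TMM moved the median of all genes from 0.12 to -0.06. Id1 went from -0.59 to 0.035 with usual shares and to -1.05 without the 5 highest Id cells of each class. Id3 went from -0.33 to -0.77 without those cells, which are a larger part of the endoderm-high class. Id2 went from 0.79 to -0.52 at the limit of 20, -0.44 at 15000 UMIs or more, -0.62 without macrophage-marker cells, 0.098 without the 5 highest Id cells, 1.63 with equal weights and 1.76 with usual shares. The r of Id2 and Id3 in the knockout was 0.093 with low-mitochondrial cells, 0.14 with fibroblast cells, 0.099 without thinning and 0.12 at 5000 UMIs. Genes past 2-fold numbered 451 at 1 CPM and 2904 with no minimum between the libraries (94 in the main comparison), and 3575 and 17660 between the classes (1425). The thinned share of Smad1 in the knockout, 10.5%, was 7.66% under another random draw.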
